A study of Mus musculus with 8 samples.

Results

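Solute carriers are membrane proteins that move ions, amino acids, sugars, metals, nucleosides and organic ions across the plasma membrane and the membranes of lysosomes, mitochondria and the endoplasmic reticulum. The genes described here are the rows of the deposited table whose symbol starts with Slc and a digit, or with Slco. Of the 1329 genes of the table, 20 of this kind are described. The reference list of gene names holds 393 symbols of this kind, and the carriers outside the table were not analysed here. Every sample was the ascending aorta of Fbn1mgR/mgR mice, which express too little fibrillin-1 and are a model of Marfan syndrome. One group of 4 libraries came from mice given DT-061, a small molecule that activates protein phosphatase 2A, by mouth at 5 mg/kg 2 times a day for 4 weeks from an age of 5 weeks. The other 4 libraries came from mice of that genotype given the vehicle, a mixture of N,N-dimethylacetamide, Kolliphor HS-15 and water, on the same schedule. No unaffected genotype was among the samples, and the labels do not say whether each library was a separate mouse, so p-values measure only the spread between these samples, which may be technical.

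Solute carriers are grouped into families by sequence, and members of a family often share a kind of substrate. Sodium-calcium exchangers help to set the calcium of muscle cells, and anion exchangers help to set their pH. Macrophages and other immune cells rely on lysosomal carriers that release the amino acids, peptides, sugars and nucleosides produced by digestion.

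The table had been reduced by its authors to genes significant between these groups, so every count and p-value below is taken from genes already chosen on the same comparison, and none is independent evidence. Values are FPKM, fragments scaled to the length of the gene and to the mapped fragments of the library, so that levels can be compared between genes. The log2 change, or difference in log2(FPKM + 1), is positive where the DT-061 mean was higher, and adding 1 makes it smaller than the true change where levels are low. "Rose" and "fell" are used for an adjusted p under 0.05 by limma, adjusted over the whole table. Libraries held an estimated 14100000 to 22200000 fragments. The smooth muscle genes Acta2, Tagln and Myh11 were among the marker genes in the table, at 4845, 3380 and 605 FPKM on average with vehicle. DT-061 library 3 and vehicle library 4 stood apart from the rest of their groups. The smooth muscle marker score, the mean log2(FPKM + 1) of 10 genes, was 9.38 in DT-061 library 3 against 8.90 to 9.06 in the other DT-061 libraries. The macrophage score, from 3 genes, was 2.21 in vehicle library 4 against 3.61 to 5.08 in the other vehicle libraries.

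With DT-061, carriers that exchange ions and the most abundant of the 20 carriers were higher, and carriers of amino acids, peptides, sugars, nucleosides and metals were lower. Of the 20 genes, 6 rose and 14 fell by limma, where 30.4% of the table rose and 65.0% fell. Changes were also fitted with 2 other scalings, a median rescaling that gives each library the same median over the table, and quantile normalization. Both shift the changes of the table upward, by a median of 0.69 and 0.56, so they are little test of a rise. For the same reason they cannot settle the direction of a small fall. All 6 rises were called with both, and of the 14 falls 7 turned to higher with the median rescaling and 13 with quantile normalization. In 6 carriers every DT-061 library lay above every vehicle library, against 30.1% of the table. In 12 carriers every DT-061 library lay below every vehicle library, against 48.2% of the table. The median log2 change was 0.59 among the 6 higher carriers and -0.52 among the 14 lower ones, against 0.47 and -0.87 in the table. Over all 20 it was -0.42, against -0.58. Without DT-061 library 3 the counts were 5 and 13, and without vehicle library 4 they were 6 and 14. The count of falls was 8 without DT-061 library 1 and 8 without DT-061 library 4.

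**Figure D1:**
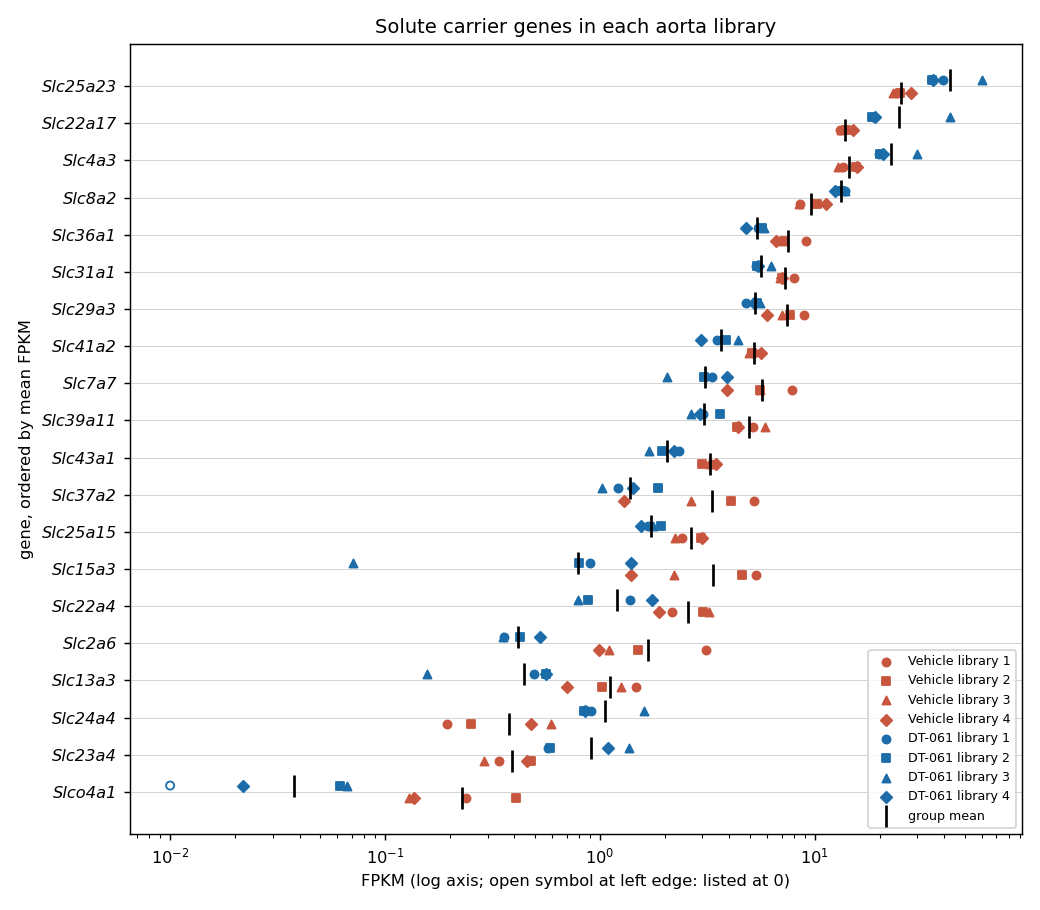
FPKM of each solute carrier gene (rows, ordered by the mean of 8 libraries; log axis) in 4 vehicle and 4 DT-061 libraries, with black ticks at the group means and an open symbol for a value listed at 0. The 4 uppermost genes, from Slc25a23 to Slc8a2, are higher in each DT-061 library, and DT-061 library 3 lies far to the right in 3 of them.

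The 4 most abundant carriers rose. Slc25a23, Slc22a17, Slc4a3 and Slc8a2 had means of 33.8, 19.3, 18.5 and 11.5 FPKM over the 8 libraries. The next carrier in order, Slc36a1, averaged 6.45 FPKM and fell. The remaining rises, of Slc24a4 and Slc23a4, were of genes at 0.715 and 0.648 FPKM. Over the 8 libraries, Slc22a17 and Slc4a3 could not be ordered, since Slc4a3 was the higher one in 6 libraries and Slc22a17 in DT-061 library 3 and vehicle library 3. The whole table had the same slant, with a median level of 15.6 FPKM among its 435 higher genes and 3.10 FPKM among its 894 lower ones.

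Genes were grouped by the usual substrate of their family. Carriers for ions gave 3 genes, and all 3 rose, where 30.4% of the table did. The carriers of zinc, copper and magnesium were put in a class of their own, and all 3 of those fell. Slc4a3 encodes the anion exchanger AE3, which swaps chloride for bicarbonate and so acidifies the cell (GRCm38 chromosome 1, 75546266 to 75562172). Its level was 19.8, 20.1, 29.9 and 20.8 FPKM in DT-061 libraries 1 to 4 and 13.5, 15.5, 12.9 and 15.6 FPKM in vehicle libraries 1 to 4. The groups did not overlap, and DT-061 library 3 was well above the other 3. The mean was 22.7 ± 4.86 against 14.4 ± 1.39 FPKM (SD, n = 4), a difference of 0.61 ± 0.15 in log2(FPKM + 1) (SE; limma adjusted p = 0.016), and the fold was 1.58, or 1.41 without DT-061 library 3.

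The sodium-calcium exchanger gene Slc8a2, whose product NCX2 exports calcium in exchange for sodium, lies on chromosome 7 (16129826 to 16161063). It stood at 13.8, 13.2, 13.8 and 12.4 FPKM with DT-061 and at 8.55, 10.2, 8.46 and 11.2 FPKM with vehicle. These DT-061 libraries were close to each other, and library 3 did not stand out. The mean was 13.3 ± 0.661 against 9.61 ± 1.34 FPKM (SD, n = 4), a difference of 0.44 ± 0.11 in log2(FPKM + 1) (limma adjusted p = 0.017). The related gene Slc24a4 encodes NCKX4, a potassium-dependent sodium-calcium exchanger, and was scarce. Its values were 0.904, 0.845, 1.60 and 0.852 FPKM with DT-061 and 0.194, 0.252, 0.590 and 0.476 FPKM with vehicle. The groups did not overlap, and the log2 change was 0.57 ± 0.16 (limma adjusted p = 0.018). In vehicle library 1 the level of Slc24a4 came to about 14.2 fragments, and in DT-061 library 3 to about 105.2, so counting error is large in this gene.

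Mitochondrial carriers moved both ways. Slc25a23 encodes a calcium-regulated carrier that exchanges ATP-magnesium for phosphate across the inner mitochondrial membrane, and it was the most abundant of the 20 carriers (chromosome 17, 57043711 to 57059863). It stood at 39.4, 35.2, 59.9 and 35.6 FPKM with DT-061 and at 24.1, 24.9, 23.2 and 28.1 FPKM with vehicle. All DT-061 libraries were above all vehicle libraries, with library 3 the highest. The mean was 42.5 ± 11.7 against 25.1 ± 2.14 FPKM (SD, n = 4), a difference of 0.71 ± 0.17 in log2(FPKM + 1) (limma adjusted p = 0.016), and the fold of 1.70 became 1.47 without DT-061 library 3. Slc25a15, the ornithine carrier that links the mitochondrion to the urea cycle and polyamine synthesis, fell. It ranged from 1.56 to 1.93 FPKM with DT-061 and from 2.24 to 2.98 FPKM with vehicle, a difference of -0.41 ± 0.14 in log2(FPKM + 1) (limma adjusted p = 0.027). It was no longer called when DT-061 library 1, DT-061 library 4 or vehicle library 2 was left out, with a limma adjusted p of 0.065 to 0.067, and the direction turned with both other scalings.

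The class of organic ion carriers, set by family alone, was split as well, with Slc22a17 higher and Slc22a4 and Slco4a1 lower. Slc22a17 encodes a cell surface receptor for lipocalin-2, an iron-siderophore binding protein (chromosome 14, 54906304 to 54913132). Its level was 18.6, 18.4, 42.6 and 19.0 FPKM with DT-061 and 13.1, 14.0, 13.3 and 15.1 FPKM with vehicle. The groups did not overlap, but DT-061 library 3 was far above the other DT-061 libraries, which were close to each other. The mean was 24.7 ± 11.9 against 13.9 ± 0.911 FPKM (SD, n = 4), a difference of 0.70 ± 0.26 in log2(FPKM + 1) (limma adjusted p = 0.032). Without DT-061 library 3 the mean was 18.7 ± 0.311 FPKM (SD, n = 3), the fold went from 1.78 to 1.35 and the log2 change to 0.41. It was no longer called when any 1 of vehicle libraries 1 to 3 was left out, with a limma adjusted p of 0.062 to 0.066. The gene of the ligand, Lcn2, moved the other way, at 1.52, 1.12, 0.903 and 3.16 FPKM with DT-061 and 35.2, 23.3, 7.21 and 8.14 FPKM with vehicle, a difference of -2.65 ± 0.51 in log2(FPKM + 1) (limma adjusted p = 0.014).

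Slc22a4, the gene of the ergothioneine carrier OCTN1, fell from 2.57 ± 0.651 FPKM with vehicle to 1.20 ± 0.447 FPKM with DT-061 (SD, n = 4). Single values were 1.38, 0.876, 0.792 and 1.74 FPKM with DT-061 and 2.16, 3.03, 3.21 and 1.88 FPKM with vehicle. The groups came close, at DT-061 library 4 and vehicle library 4, without overlapping, and the log2 change was -0.70 ± 0.21 (limma adjusted p = 0.020). It was -0.19 and not called with the median rescaling, and turned to 0.22 with quantile normalization. The organic anion transporter gene Slco4a1, whose product carries thyroid hormones among other anions, was the least abundant carrier. It was listed at 0 FPKM in DT-061 library 1, stood at 0.0619, 0.0667 and 0.0219 FPKM in DT-061 libraries 2 to 4, and at 0.239, 0.407, 0.129 and 0.137 FPKM with vehicle. These levels came to at most about 4.6 fragments in a DT-061 library and 9.3 to 43.3 in a vehicle library, and the log2 change was -0.24 ± 0.08 (limma adjusted p = 0.025). The call of Slco4a1 was lost without DT-061 library 1 or 4 (limma adjusted p of 0.053 to 0.059) and in limma without its trend and robust options. It was lost as well with the median rescaling, at -0.15 (limma adjusted p = 0.118), and the change turned to 0.13 with quantile normalization. Slc23a4, of the family of ascorbate and nucleobase carriers, rose, with 0.576, 0.588, 1.36 and 1.09 FPKM against 0.341, 0.476, 0.289 and 0.456 FPKM. Its groups did not overlap, with DT-061 libraries 3 and 4 the highest, and its log2 change of 0.43 ± 0.16 (limma adjusted p = 0.029) was no longer called without any 1 of DT-061 libraries 3 and 4 and vehicle libraries 1 to 3 (limma adjusted p of 0.0504 to 0.0749).

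The promoters of the 4 abundant carriers that rose, and of 2 of the 3 carriers that fell and hold a match, are shown so that the matches can be read in place. Each is the 250 bases before the annotated start, from RefSeq on GRCm38.p6, written 5′ to 3′ on the strand of the gene. Capitals mark the letters that match a motif, and 19 of the 20 carriers had an entry. Where a carrier had several starts, the one nearest the 5′ end of the gene in GENCODE was taken. The RefSeq start can still differ from the GENCODE position. The windows of Slc4a3 and Slc13a3 lie partly within the gene as GENCODE places it. Among the carriers not shown, those of Slc43a1 and Slc23a4 lie wholly within it.
Slc25a23 (chr17:57059864-57060113, minus strand): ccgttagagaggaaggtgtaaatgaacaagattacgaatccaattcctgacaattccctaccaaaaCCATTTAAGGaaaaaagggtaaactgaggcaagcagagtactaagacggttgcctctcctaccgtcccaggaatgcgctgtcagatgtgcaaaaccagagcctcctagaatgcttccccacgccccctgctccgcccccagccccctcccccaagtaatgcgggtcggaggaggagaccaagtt
Slc22a17 (chr14:54913133-54913382, minus strand): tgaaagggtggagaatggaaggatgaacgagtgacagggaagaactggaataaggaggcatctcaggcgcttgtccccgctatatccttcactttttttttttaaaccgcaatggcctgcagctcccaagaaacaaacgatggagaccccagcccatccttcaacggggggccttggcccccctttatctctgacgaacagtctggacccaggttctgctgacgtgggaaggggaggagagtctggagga
Slc4a3 (chr1:75546212-75546461, plus strand): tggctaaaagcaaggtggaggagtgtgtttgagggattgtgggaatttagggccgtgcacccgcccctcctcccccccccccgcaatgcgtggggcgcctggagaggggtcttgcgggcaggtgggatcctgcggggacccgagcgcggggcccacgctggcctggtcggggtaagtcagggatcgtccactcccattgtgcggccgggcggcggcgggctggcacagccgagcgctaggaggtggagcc
Slc8a2 (chr7:16129576-16129825, plus strand): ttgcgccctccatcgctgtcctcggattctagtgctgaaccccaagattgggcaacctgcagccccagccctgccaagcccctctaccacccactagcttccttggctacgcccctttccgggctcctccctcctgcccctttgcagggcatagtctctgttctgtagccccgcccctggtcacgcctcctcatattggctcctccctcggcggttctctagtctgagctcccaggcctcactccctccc
Slc36a1 (chr11:55204090-55204339, plus strand): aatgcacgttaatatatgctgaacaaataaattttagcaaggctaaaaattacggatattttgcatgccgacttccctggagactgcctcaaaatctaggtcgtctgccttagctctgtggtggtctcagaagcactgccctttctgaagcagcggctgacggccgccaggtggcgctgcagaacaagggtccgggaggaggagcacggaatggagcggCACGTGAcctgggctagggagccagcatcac
Slc13a3 (chr2:165473198-165473447, minus strand): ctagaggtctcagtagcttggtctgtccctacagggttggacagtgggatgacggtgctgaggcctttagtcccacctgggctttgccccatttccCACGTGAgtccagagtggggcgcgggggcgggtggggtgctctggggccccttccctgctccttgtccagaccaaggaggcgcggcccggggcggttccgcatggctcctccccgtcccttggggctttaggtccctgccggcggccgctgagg
There were 3 motifs searched on both strands, chosen after the values were seen. The CArG box, the element bound by serum response factor at many smooth muscle genes, was found 184 to 175 bases before the start of Slc25a23 and in no other of the 19 carriers. It was in 1.47% of the 32851 promoter windows of the reference. TCACGTG, the core of the element that TFEB binds at lysosomal genes, was found 31 to 25 bases before the start of Slc36a1 and 154 to 148 bases before that of Slc13a3, both times on the opposite strand, and in 3.13% of all windows. GAGGAAGT, a form of the element of the myeloid factor PU.1, was found in Slc31a1 alone of the 19 and in 2.44% of all windows. A match is a description of the letters in these windows and not a sign of binding.

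The carriers of peptides, sugars, nucleosides and amino acids, 4 classes put together after their values were seen, gave 7 genes. All 7 fell, where 65.0% of the table did, though 3 turned to higher with the median rescaling and 6 with quantile normalization. A group of 4 of them, Slc15a3, Slc2a6, Slc29a3 and Slc36a1, put together after their values were seen, acts in lysosomes, and Slc15a3 had the largest log2 change among all 20 carriers. Slc15a3 encodes PHT2, which moves histidine and small peptides out of lysosomes (chromosome 19, 10839727 to 10859362). Its level was 0.901, 0.802, 0.0708 and 1.40 FPKM with DT-061 and 5.32, 4.56, 2.22 and 1.40 FPKM with vehicle. DT-061 library 4 and vehicle library 4 were alike to 3 digits, and DT-061 library 3 was the lowest by far. The mean was 0.792 ± 0.547 against 3.37 ± 1.86 FPKM (SD, n = 4), 4.26-fold lower, with a difference of -1.24 ± 0.38 in log2(FPKM + 1) (limma adjusted p = 0.020). With quantile normalization it was -0.40 and not called. The exons of Tmem132a on the other strand cover 28.1% of the exonic bases of Slc15a3, and without the strand setting of the counting the fragments of the pair cannot be told apart.

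Slc2a6, which encodes the lysosomal hexose transporter GLUT6, stood at 0.360, 0.425, 0.356 and 0.526 FPKM with DT-061 and at 3.10, 1.496, 1.10 and 0.993 FPKM with vehicle (chromosome 2, 27021363 to 27027998). The DT-061 libraries were alike and the vehicle libraries spread, with library 1 the highest, and the groups did not overlap. The mean was 4.01-fold lower with DT-061, at 0.417 ± 0.0797 against 1.67 ± 0.976 FPKM (SD, n = 4), and the log2 change was -0.85 ± 0.23 (limma adjusted p = 0.018). It was still called with the median rescaling, at -0.47, but was 0.033 with quantile normalization. Slc29a3, the lysosomal nucleoside carrier ENT3, had 4.80, 5.41, 5.57 and 5.21 FPKM with DT-061 and 8.95, 7.70, 7.04 and 6.01 FPKM with vehicle. The groups did not overlap, and the log2 change was -0.42 ± 0.13 (limma adjusted p = 0.022), lost without DT-061 library 1 (limma adjusted p = 0.053). Slc36a1, the proton-coupled amino acid carrier PAT1 of lysosomes, had 5.41, 5.66, 5.80 and 4.76 FPKM with DT-061 and 9.06, 7.17, 7.08 and 6.62 FPKM with vehicle. These groups were apart too, and the log2 change was -0.40 ± 0.13 (limma adjusted p = 0.022), lost without DT-061 library 4 (limma adjusted p = 0.052). Slc29a3 and Slc36a1 turned to higher with both other scalings.

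The other 3 of the 7 were Slc7a7, Slc43a1 and Slc37a2. Slc7a7 encodes y+LAT1, which exports arginine and lysine in exchange for neutral amino acids. It stood at 3.32, 3.05, 2.06 and 3.90 FPKM with DT-061 and at 7.79, 5.55, 5.53 and 3.90 FPKM with vehicle. The groups met at DT-061 library 4 and vehicle library 4, while the other libraries were apart. Its log2 change was -0.70 ± 0.22 (limma adjusted p = 0.021) but -0.023 with the median rescaling and 0.046 with quantile normalization, called with neither. Slc43a1, a carrier of large neutral amino acids, ranged from 1.68 to 2.34 FPKM with DT-061 and from 2.98 to 3.46 FPKM with vehicle. The difference was -0.49 ± 0.14 in log2(FPKM + 1) (limma adjusted p = 0.018) and turned to higher with both other scalings. Unlike in Slc7a7, vehicle library 4 was the highest library in Slc43a1.

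Slc37a2 encodes a glucose-6-phosphate carrier of the endoplasmic reticulum and had 1.21, 1.87, 1.02 and 1.43 FPKM with DT-061 and 5.19, 4.08, 2.67 and 1.29 FPKM with vehicle. Vehicle library 4 lay within the DT-061 range and the other vehicle libraries above it. The log2 change of -0.77 ± 0.31 (limma adjusted p = 0.042) was no longer called when any library other than vehicle library 4 was left out (limma adjusted p of 0.052 to 0.10), and it turned to 0.15 with quantile normalization. Slc13a3, the sodium-dicarboxylate carrier NaDC3 for succinate and related acids, had 0.494, 0.563, 0.156 and 0.559 FPKM with DT-061 and 1.47, 1.02, 1.25 and 0.703 FPKM with vehicle. The groups were apart, with DT-061 library 3 the lowest, and the log2 change was -0.55 ± 0.16 (limma adjusted p = 0.019). It was -0.22 and not called with the median rescaling, and turned to 0.24 with quantile normalization.

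The 3 metal carriers fell with FPKM as deposited, where 65.0% of the table did. Slc39a11, the zinc importer ZIP11, had 3.004, 3.63, 2.65 and 2.91 FPKM with DT-061 and 5.18, 4.34, 5.84 and 4.41 FPKM with vehicle. The groups were separate and the log2 change was -0.55 ± 0.14 (limma adjusted p = 0.017). The high-affinity copper importer gene Slc31a1 had 5.30, 5.37, 6.22 and 5.46 FPKM with DT-061 and 8.03, 7.05, 6.86 and 7.06 FPKM with vehicle. Its groups were separate, and it was 1.297-fold lower, with a difference of -0.32 ± 0.11 in log2(FPKM + 1) (limma adjusted p = 0.023), lost without DT-061 library 1, 2 or 4 (limma adjusted p of 0.051 to 0.058). The magnesium carrier gene Slc41a2 ranged from 2.94 to 4.37 FPKM with DT-061 and from 4.92 to 5.62 FPKM with vehicle. The log2 change was -0.42 ± 0.13 (limma adjusted p = 0.022) and was no longer called without DT-061 library 1 or 4 (limma adjusted p of 0.051 to 0.052). All 3 turned to higher with both other scalings. Of the 4 fixed genes of zinc buffering, the metallothioneins and their regulator, none was in the table.

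**Figure D2:**
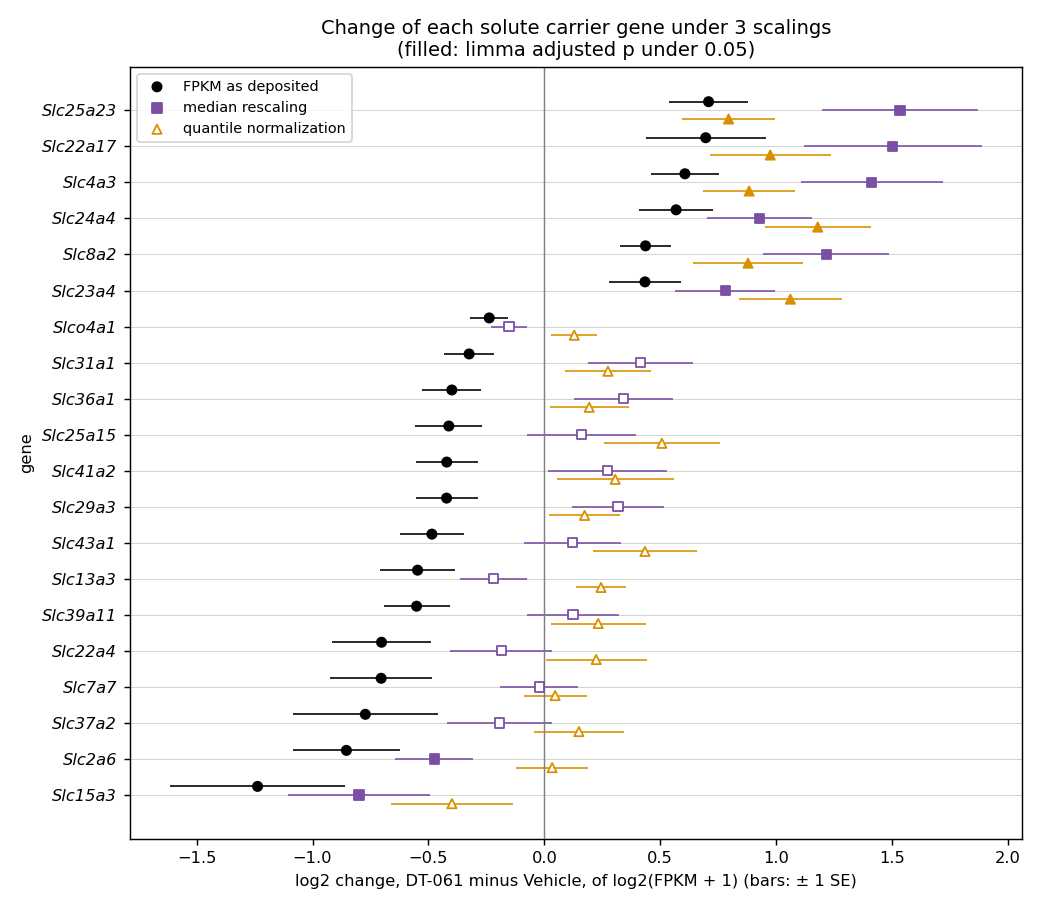
Change of each solute carrier gene (log2, DT-061 minus vehicle, ± 1 SE) with FPKM as deposited, after median rescaling and after quantile normalization, where filled symbols have a limma adjusted p under 0.05. The 6 rises stay right of 0 and filled under all 3 scalings, while 7 of the 14 falls turn to higher with the median rescaling and 13 with quantile normalization. Both other scalings shift the changes of the table upward, so they are little test of the rises and cannot settle the direction of small falls.

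The other scalings shift the whole table, by a median log2 change of 0.69 for the median rescaling and 0.56 for quantile normalization. Among the falls, 2 were still called by limma with the median rescaling, Slc15a3 and Slc2a6, and 0 with quantile normalization, where 0 were lower at an unadjusted p under 0.05. Of the carriers that turned to higher, 0 were called as higher by limma with either scaling, and 1, Slc13a3 with quantile normalization, had an unadjusted p under 0.05.

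The 14 lower carriers differed in how vehicle library 4 behaved. In 8 of them, Slc15a3, Slc2a6, Slc37a2, Slc7a7, Slc22a4, Slc13a3, Slc29a3 and Slc36a1, vehicle library 4 was the lowest vehicle library. In 3 others, Slc43a1, Slc41a2 and Slc25a15, it was the highest vehicle library. Over the 894 lower genes of the table it was the lowest in 75.5% and the highest in 5.93%, so the carriers had 57.1% and 21.4%. The difference between carriers and table was not tested. DT-061 library 3 was the highest DT-061 library in 5 of the 6 carriers that rose, all but Slc8a2, and in 72.9% of the 435 higher genes of the table.

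**Figure D3:**
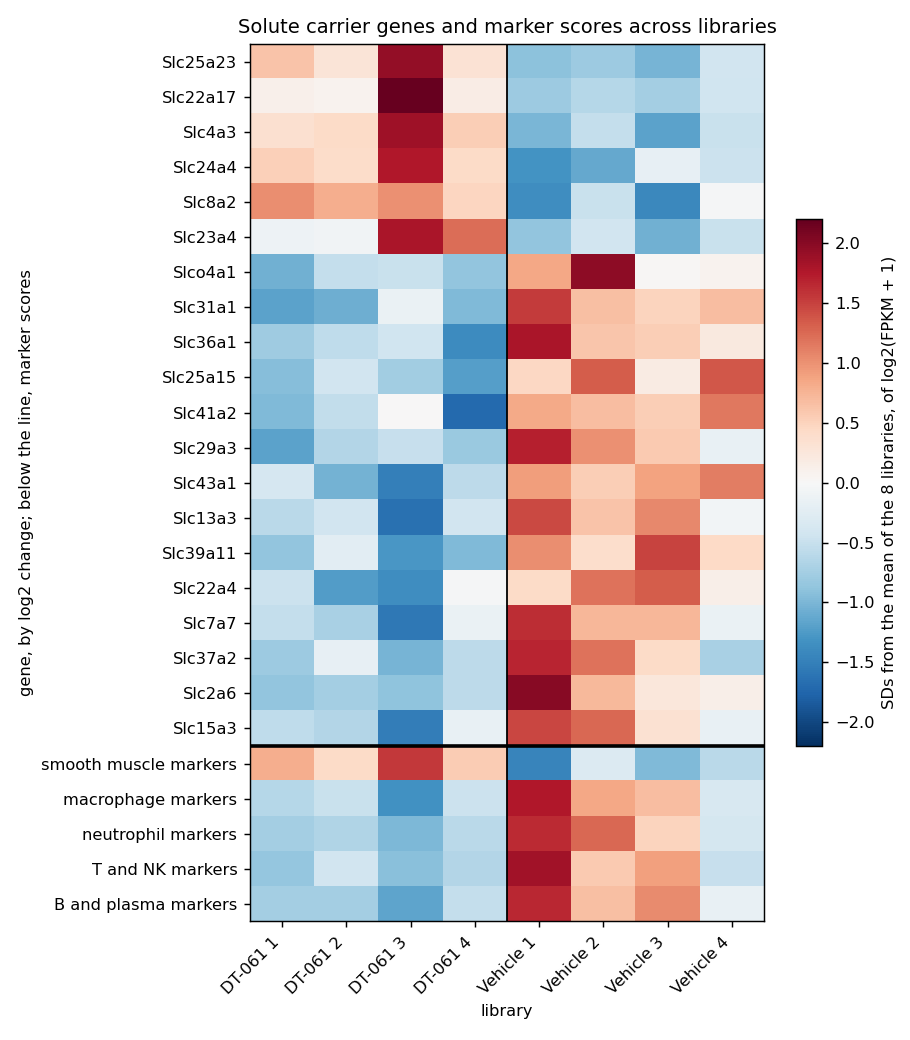
Each solute carrier gene, and the marker scores of 5 cell types, in 8 libraries, as SDs from the mean of the libraries on the log2(FPKM + 1) scale. DT-061 library 3 is darkest red in 5 of the 6 rises, and vehicle library 4 is pale or blue in the lowest rows, from Slc22a4 to Slc15a3, and in the immune marker scores.

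Marker scores differed between the groups as well, though not library by library with every carrier. Vehicle library 4, the lowest vehicle library in the macrophage score, was the highest one in Slc43a1, Slc41a2 and Slc25a15, and DT-061 library 3, the lowest in that score, was the highest DT-061 library in the lower carriers Slc31a1, Slc36a1, Slc41a2, Slc29a3 and Slco4a1. In 8 of the 14 lower carriers (57.1%) DT-061 library 3 was the lowest DT-061 library, against 76.0% of the lower genes of the table. The 3 macrophage genes in the table, of 20 fixed, fell, and their score was 0.89 to 2.06 with DT-061 and 2.21 to 5.08 with vehicle. By limma 2 of these 3 were called with quantile normalization. Of 22 T and NK cell genes, 16 were in the table, 15 of which fell, and the score was 0.26 to 0.67 against 0.59 to 2.49. With quantile normalization 0 of these 16 were called by limma, 3 were lower at an unadjusted p under 0.05 and 4 turned to higher. All 5 neutrophil genes in the table, of 14, fell as well, with 0.37 to 0.80 against 1.02 to 3.25. By limma 1 of these 5 was called with quantile normalization. In S100a8 and S100a9 the groups overlapped with FPKM as deposited. The 8 B and plasma cell genes in the table, of 15, fell, with 2.10 to 3.19 against 3.80 to 6.91, although Sdc1 and Xbp1 turned to higher with the median rescaling. By limma 4 of these 8 were called with quantile normalization. All 10 smooth muscle genes in the table, of 16, rose, with a score of 8.90 to 9.38 against 8.12 to 8.61. With quantile normalization 8 of these 10 were called by limma, and Tagln, at 0.15, was not (limma adjusted p = 0.505). Acta2, the most abundant gene of the table, was at 0 change, which that method gives to a gene that is the highest in every library. The 2 adipocyte genes in the table, of 18, fell, with a score of 3.81 to 5.56 against 6.11 to 7.57. The 2 fibroblast genes in the table, of 14, fell, with 3.98 to 5.26 against 5.96 to 6.88, although Lum turned to higher with the median rescaling. Of 14 Schwann cell and neuron genes, Ncam1 rose and Tubb3 fell, and the score was 2.89 to 2.96 against 3.03 to 3.55. Of the 12 endothelial genes none was in the table, and of 15 erythroid genes only Tfrc was. The part of these cell types in the changes of the carriers was not tested. In bulk tissue, fewer cells of a type and less RNA per cell cannot be told apart.

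Other transport proteins gave few genes in the table. Of 87 ATP-binding cassette transporters, ion pumps, aquaporins and related genes, 6 were in it, of which 2 rose and 4 fell, though Atp6v1b2 turned to higher with the median rescaling and Abcg3, a gene named after its values were seen, with quantile normalization. Their median log2 change was -0.50, against -0.58 in the table. Atp1b2, a subunit of the sodium-potassium pump that supplies the gradient for sodium-calcium exchange, rose by 0.70 ± 0.20 on the log2 scale, with 30.8, 26.5, 49.7 and 31.6 FPKM against 16.9, 19.7, 22.5 and 23.0 FPKM. As in Slc4a3 and Slc25a23, DT-061 library 3 was the highest. Fxyd6, a modulator of that pump, had a difference of -0.88 ± 0.12 in log2(FPKM + 1) (limma adjusted p = 0.012), which was -0.070 with the median rescaling and -0.62, still called, with quantile normalization. Atp8b4, of the family of phospholipid flippases, stood at 0.489, 0.573, 0.0363 and 0.609 FPKM with DT-061 and at 1.91, 1.72, 2.01 and 1.02 FPKM with vehicle. Its log2 change of -0.91 ± 0.20 (limma adjusted p = 0.016) was still called with the median rescaling, at -0.57, and not with quantile normalization, at -0.12. Among iron handling genes, 4 of 23 were in the table and all 4 fell, where 65.0% of the table did. Lcn2 and Hp, the gene of the haemoglobin binding protein haptoglobin, were called with both other scalings, while Tfrc turned to higher with both and Steap3 with the median rescaling. Hp had 99.2, 75.3, 13.7 and 198 FPKM with DT-061 and 874, 525, 618 and 518 FPKM with vehicle, a difference of -3.17 ± 0.71 in log2(FPKM + 1) (limma adjusted p = 0.016). Of 26 genes of the amino acid stress response, 3 were in the table. Vldlr rose by 0.41 ± 0.14 on the log2 scale, and the alanine transaminase gene Gpt2 and the chaperone gene Hspa5 had changes of -0.83 ± 0.22 and -0.76 ± 0.25, of which Hspa5 turned to higher with the median rescaling.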

How the data were processed

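Libraries of poly-A RNA were sequenced from both ends on a NovaSeq instrument, per the labels' protocols. The build mm10 and the tools featureCounts 1.5.0-p3, StringTie 1.3.3b and HISAT2 2.0.5 are named without roles, per the submitters' processing notes. The authors deposited FPKM values of 1329 selected genes. The selection rule and the strand setting were not stated in the sources used here.

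Symbols for 1328 identifiers came from the reference names. Positions, exons and exonic lengths came from GENCODE M21 on GRCm38, the build mm10 names. The members and lists were chosen with earlier results of these data known. One row that meets the naming rule and 1 gene of the list of other transport proteins are not reported here.

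In R 4.3.3, limma 3.58.1 with a fitted trend and robust variances was run on log2(FPKM + 1) of all genes and 8 libraries, with treatment as the only term and Benjamini-Hochberg adjustment over the table. The procedure was tested on simulated data. As alternatives, the pseudocount was set to 0.1, genes under a mean FPKM of 1 were removed, and plain limma, 2 scalings, a replicate block and leaving out libraries were tried. All 20 carriers were named. Values in every library were given for up to 6 of the largest changes in each direction. These were taken among carriers with a mean FPKM of 1 or more, of which only 4 rose. Such values were also given for the most abundant carrier of each substrate class. Slc24a4 and Slco4a1 were added after their values were seen. From each other list, at most 4 genes were to be named, by size of change, if their mean FPKM was 1 or more, beside genes whose direction turned.

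Fragments per library were estimated from the steps of low values: multiplied by the exonic length used, these would be whole multiples of what 1 fragment adds. Most low values were not near a whole number, so the estimates are approximate. At the step chosen, 21.1% to 38.2% of low values lay within 0.03 of a whole number, against 5.26% to 6.02% at the median step tried. Fragment numbers of single genes assume these lengths.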

Additional observations from a re-analysis of the deposited data

Results flagged for a closer look

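In 6 of 40 groups of 4 libraries, the highest or the lowest library lay far from the other 3, where chance alone does so in about 1 in 20 independent groups. In 5 of the 6 it was DT-061 library 3. That library was high in Slc25a23 (59.9 FPKM against 35.2 to 39.4), Slc22a17 (42.6 against 18.4 to 19.0), Slc4a3 (29.9 against 19.8 to 20.8) and Slc24a4 (1.60 against 0.845 to 0.904). It was low in Slc13a3, with 0.156 FPKM against 0.494 to 0.563 in the other DT-061 libraries. In Slc31a1, vehicle library 1 was high, at 8.03 FPKM, where the other 3 had 6.86 to 7.06.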

How the results depend on the processing

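The 6 rises and 14 falls were unchanged with a pseudocount of 0.1. With a minimum mean FPKM of 1, which leaves 16 carriers, there were 4 and 12, and in limma without its trend and robust options 6 and 13. The number of falls was 2 with the median rescaling, 0 with quantile normalization (limma, and 0 at an unadjusted p under 0.05; 6 rises with each) and 2 with a replicate block, where 4 rises were called. With 1 library left out, which also leaves fewer values to test, there were 4 to 6 rises and 8 to 14 falls, and with vehicle library 4 and DT-061 library 3 both left out there were 5 and 14. With the median rescaling, the log2 change turned to 0.41 in Slc31a1, 0.34 in Slc36a1, 0.16 in Slc25a15, 0.27 in Slc41a2, 0.32 in Slc29a3, 0.12 in Slc43a1 and 0.12 in Slc39a11. With quantile normalization it turned to 0.13 in Slco4a1, 0.27 in Slc31a1, 0.19 in Slc36a1, 0.51 in Slc25a15, 0.31 in Slc41a2, 0.17 in Slc29a3, 0.43 in Slc43a1, 0.24 in Slc13a3, 0.23 in Slc39a11, 0.22 in Slc22a4, 0.046 in Slc7a7, 0.15 in Slc37a2 and 0.033 in Slc2a6. Both scalings equalise the libraries over a selected table in which most genes were lower, and so move its changes upward. They cannot settle the direction of the small falls. Why most genes of the table were lower was not tested. The replicate numbers gave no clear sign of pairing: same-numbered libraries had correlations of -0.47 to 0.18 in their deviations from the group means, and 1 of 4 was above 0.1. With 4 pairs, these correlations cannot settle whether the libraries were paired or batched. Depth limits Slco4a1, Slc24a4, Slc23a4, Slc13a3, Slc2a6 and, in DT-061 library 3, Slc15a3, which rest on few fragments.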
